A study of Mus musculus with 4 samples.

Results

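The developmental homeobox and paired-box regulators described here are 38 genes chosen by name from the Pax, Lhx, Six-type, Dlx, Irx and Nkx families. The rule used no methylation threshold, but the set was proposed with earlier results of these data known. They are 38 of the 37310 genes of the mm9 annotation. The set holds Pax1, Pax2, Pax3, Pax5, Pax6, Pax7, Pax8 and Pax9 (paired-box factors), Lhx1, Lhx2, Lhx3, Lhx4, Lhx5, Lhx6, Lhx8 and Lhx9 (LIM-homeobox factors), and Six2, Six3, Six4 and Six6 (sine oculis-related factors). It also holds Dlx1 to Dlx6 (distal-less homeobox factors), Irx1 to Irx6 (Iroquois factors), and Nkx2-1, Nkx2-2, Nkx2-3, Nkx2-5, Nkx6-1 and Nkx6-2 (NK-type homeobox factors).

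These proteins bind DNA and set the identity of cells and regions in the embryo, such as eye, forebrain, limb, heart, kidney and thyroid. In ES cells their genes are mostly silent, and many lie in CpG islands that carry Polycomb marks, with little DNA methylation at the 5′ end. Methylation of promoter CpG islands goes with stable silencing, whereas methylation inside gene bodies is common in expressed and silent genes alike. Growth in 2i, a pair of kinase inhibitors, lowers DNA methylation in ES cells, and Vitamin C favours its oxidation by TET enzymes.

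RRBS-seq gave the methylation of single CpG sites. MspI cuts genomic DNA at CCGG, the MspI site, and bisulfite converts unmethylated cytosines before sequencing. The 4 groups were Chr4-cl WT and Chr4-cl KO mouse ES cells, each in serum containing FCS and LIF or after 1 week in 2i with Vitamin C, with 1 library in each group. Chr4-cl is a cluster of KRAB-ZFP genes on chromosome 4, which encode KRAB zinc finger proteins that repress retrotransposons. The KO cells lack it after CRISPR/Cas9 cutting with a puromycin plasmid, and WT and KO lines were picked as single clones. Each genotype stands for 1 clone or line as far as the labels go, so clone, library and genotype cannot be told apart. Tests on reads compare these libraries and not the conditions, and every interval covers counting error only, because each group has 1 library. No molecular identifiers are named in the sources used here. Copies of 1 molecule may thus be counted as separate reads, and the intervals may be too narrow. A read that spans neighbouring CpG sites was also counted at each of them. For every gene, p-values on reads pooled over its sites may thus be too small.

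Read counts summed over CpG sites were 42672691 to 90649194 per library, and CpG sites with at least 10 reads numbered 591877 to 816807, at a median coverage of 25 to 50 reads. KO cells in 2i + Vitamin C had the lowest depth. Over the Chr4-cl interval, the counts were 83433 (WT) and 815 (KO) in serum, against 102482 and 1124 in 2i + Vitamin C. The tables of WT serum and of KO 2i + Vitamin C each held a second table joined to the end, of 1161870 and 1575598 rows, in which 59 and 54 rows reached 10 reads. Over all 400195 CpG sites covered in the 4 libraries, mean methylation was 27.4% in WT serum, 30.5% in KO serum, 13.9% in WT 2i + Vitamin C and 12.2% in KO 2i + Vitamin C. Of 10 ES cell genes, 2 had enough promoter CpG sites to be read, Sox2 and Utf1, and both stayed under 5% in every library. RRBS-seq gives no expression, so cell identity was not checked further.

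Promoters, taken as 1 kb either side of the annotated 5′ end, held 613 covered CpG sites of the 38 genes, and gene bodies, the rest of each gene, held 1131. A covered CpG site had at least 10 reads in all 4 libraries, and a gene was tested with 5 or more of them. In promoters 28 of the 38 genes were tested, 6 had 1 to 4 sites (Pax1, Pax9, Lhx9, Dlx1, Irx4 and Nkx2-3) and 4 had none (Pax6, Pax8, Lhx3 and Six6). In gene bodies 35 were tested, Irx6 had 3 sites, and Lhx8 and Six6 had none. Six6, a regulator of eye and pituitary, was therefore not seen in either region.

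The windows that carry the main differences were read from the mm9 genome on the strand of the gene, with covered CpG sites in capitals. The Dlx5 stretch lies in the last coding exon and holds all 6 body CpG sites of that gene, which were lower in KO cells in serum. The Nkx2-1 windows hold 5 of the 10 promoter sites of the gene whose promoter rose most among the 28 tested. The Irx1, Pax6 and Six3 windows hold sites where neighbouring CpG differed sharply between libraries. Pax2 shows an intron whose methylation was higher in KO cells in serum, and Nkx6-1 shows the upstream side of the promoter with the lowest level in WT serum.
Dlx5 coding exon, chr6:6828201-6828405, minus strand: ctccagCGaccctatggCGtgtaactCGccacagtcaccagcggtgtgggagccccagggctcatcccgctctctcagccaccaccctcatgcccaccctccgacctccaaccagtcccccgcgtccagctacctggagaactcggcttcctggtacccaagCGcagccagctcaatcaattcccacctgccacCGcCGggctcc
Nkx2-1 5′ UTR, chr12:57637856-57637885, minus strand: caatgaggctgaCGccccCGggccCGctag
Nkx2-1 upstream, chr12:57638049-57638084, minus strand: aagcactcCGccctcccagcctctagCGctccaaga
Irx1 5′ UTR, chr13:72101117-72101146, minus strand: gCGCGCGatctCGgataCGggCGcagcCGg
Pax6 5′ UTR, chr2:105515734-105515762, plus strand: aggagCGgtggaggCGaggccgggcgccg
Six3 intron, chr17:86016066-86016094, plus strand: tgcCGagaggtgCGCGctgccggccccag
Pax2 intron, chr19:44899806-44899949, plus strand: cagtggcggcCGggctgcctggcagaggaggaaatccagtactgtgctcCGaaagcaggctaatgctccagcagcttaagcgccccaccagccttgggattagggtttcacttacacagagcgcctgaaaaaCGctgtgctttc
Nkx6-1 upstream, chr5:102094353-102094396, minus strand: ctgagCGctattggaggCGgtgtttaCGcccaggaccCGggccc

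The promoters of the set were rich in CpG. In the 2001-base window, GC content had a median of 57.1% in the 38 genes and 47.9% in all genes, and the observed over expected CpG ratio had medians of 0.612 and 0.295. The ratio passed 0.6 in 22 of the 38 genes, or 57.9%, against 22.8% of all genes and 33.8% of protein-coding genes. Six2, a factor of kidney progenitors, had the highest ratio at 0.858. Lhx3 and Pax8, which act in pituitary and in thyroid and kidney, had the lowest at 0.239 and 0.263, and neither had a covered promoter site. MspI sites numbered 12.5 per window at the median, against 3 in all genes.

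Promoter methylation was low in every library. The median over the 28 tested genes was 2.00% in WT serum, 3.59% in KO serum, 2.00% in WT 2i + Vitamin C and 1.09% in KO 2i + Vitamin C, against 1.39%, 2.34%, 2.03% and 1.14% over the 12033 genes tested. Promoters under 5% numbered 22 and 19 of 28 in serum, then 25 and 28 in 2i + Vitamin C. Their shares of 78.6%, 67.9%, 89.3% and 100% compare with 88.5%, 82.1%, 93.9% and 95.4% of all genes. The set thus held fewer promoters under 5% than all genes in serum, with no test made of the difference. In WT serum the family medians ran from 1.57% for Nkx and 1.70% for Pax to 3.32% for Lhx, with Dlx at 1.74%, Irx at 1.88% and Six-type genes at 1.91%.

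**Figure D1:**
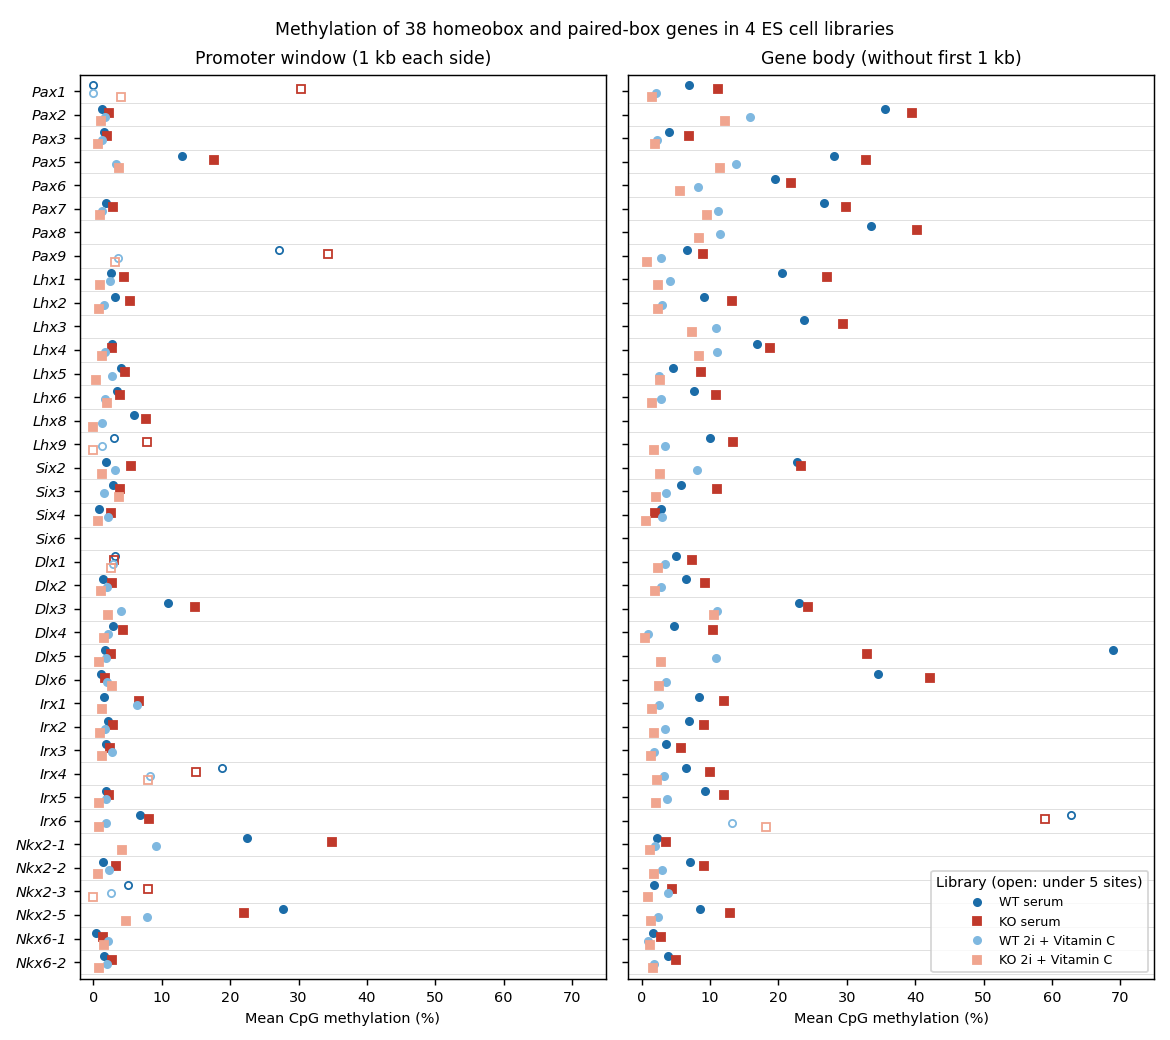
Mean methylation (percent, horizontal axis) of each gene's covered CpG sites in the promoter and in the gene body, 1 point per library, genes grouped by family on the vertical axis, open symbols marking fewer than 5 sites. Promoter medians lie between 1.09% and 3.59% in the 4 libraries, and the Dlx5 gene body stands out at 69.0% in WT serum.

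A few promoters stood above this level. Nkx2-5, a regulator of heart development, had 27.7% in WT serum, 22.1% in KO serum, 7.85% in WT 2i + Vitamin C and 4.74% in KO 2i + Vitamin C, over 5 CpG sites. Nkx2-1, a factor of thyroid, lung and ventral forebrain, had 22.5%, 34.9%, 9.08% and 4.15% over 10 sites in the same order. Pax5, the B cell identity factor, had 12.9%, 17.7%, 3.32% and 3.70% over 6 sites. All 3 were higher in serum than in 2i + Vitamin C in both genotypes.

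The lowest promoters in WT serum were those of Nkx6-1, Six4 and Dlx6. Nkx6-1, which acts in motor neurons and beta cells, had 0.434% and 1.33% in serum, then 2.07% and 1.62% in 2i + Vitamin C. Six4, a factor of muscle and sensory placodes, had 0.767%, 2.54%, 2.17% and 0.690%. Dlx6, a patterning factor of jaw and limb, had 1.14%, 1.71%, 1.959% and 2.65%. All values of these genes were under 3%, and Six4 was 1.85 points lower in 2i + Vitamin C than in serum in KO cells (adjusted p 0.000146 by Fisher's exact test).

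Of the promoters with 1 to 4 sites, Pax9 and Irx4 were high in WT serum. Pax9, needed for teeth and thymus, had 27.2%, 34.3%, 3.64% and 3.14% over 4 sites, and Irx4, a factor of the heart ventricle, had 18.8%, 15%, 8.25% and 7.94% over 4 sites. The single site of Pax1, a factor of the vertebral column, read 0% and 30.4% in serum, then 0% and 4.0% in 2i + Vitamin C, at 10 to 25 reads. These 3 were not tested.

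The promoters of the set were slightly more methylated in KO than in WT cells in serum, and slightly less in 2i + Vitamin C. Over the 613 sites, the means were 3.31% in WT serum, 5.12% in KO serum, 2.54% in WT 2i + Vitamin C and 1.27% in KO 2i + Vitamin C. The difference of KO minus WT was 1.81 points in serum (95% counting interval 1.40 to 2.22) and -1.26 points in 2i + Vitamin C (-1.62 to -0.906). In serum 26 of the 28 promoters were higher in KO cells, or 92.9% against 88.0% of all genes. By contrast 24 of the 28 were lower in 2i + Vitamin C. The counts were also 26 and 24 on pooled reads. The median difference was 1.13 points in serum and -1.01 in 2i + Vitamin C, beside 1.02 and -0.891 over all genes, so the set differed by about as much as promoters in general.

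The sign of the difference followed the pair of libraries: WT serum and KO 2i + Vitamin C, whose tables were joined from 2 parts, were the lower ones. At 5 CpG sites of mitochondrial DNA the same libraries read 0.549% and 0.490%, against 1.06% in KO serum and 1.82% in WT 2i + Vitamin C, with counting intervals that overlap. Without the rows of the second tables the differences were still 1.81 and -1.26 points. What part the pairing of libraries has in differences of 1 or 2 points was not tested.

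**Figure D2:**
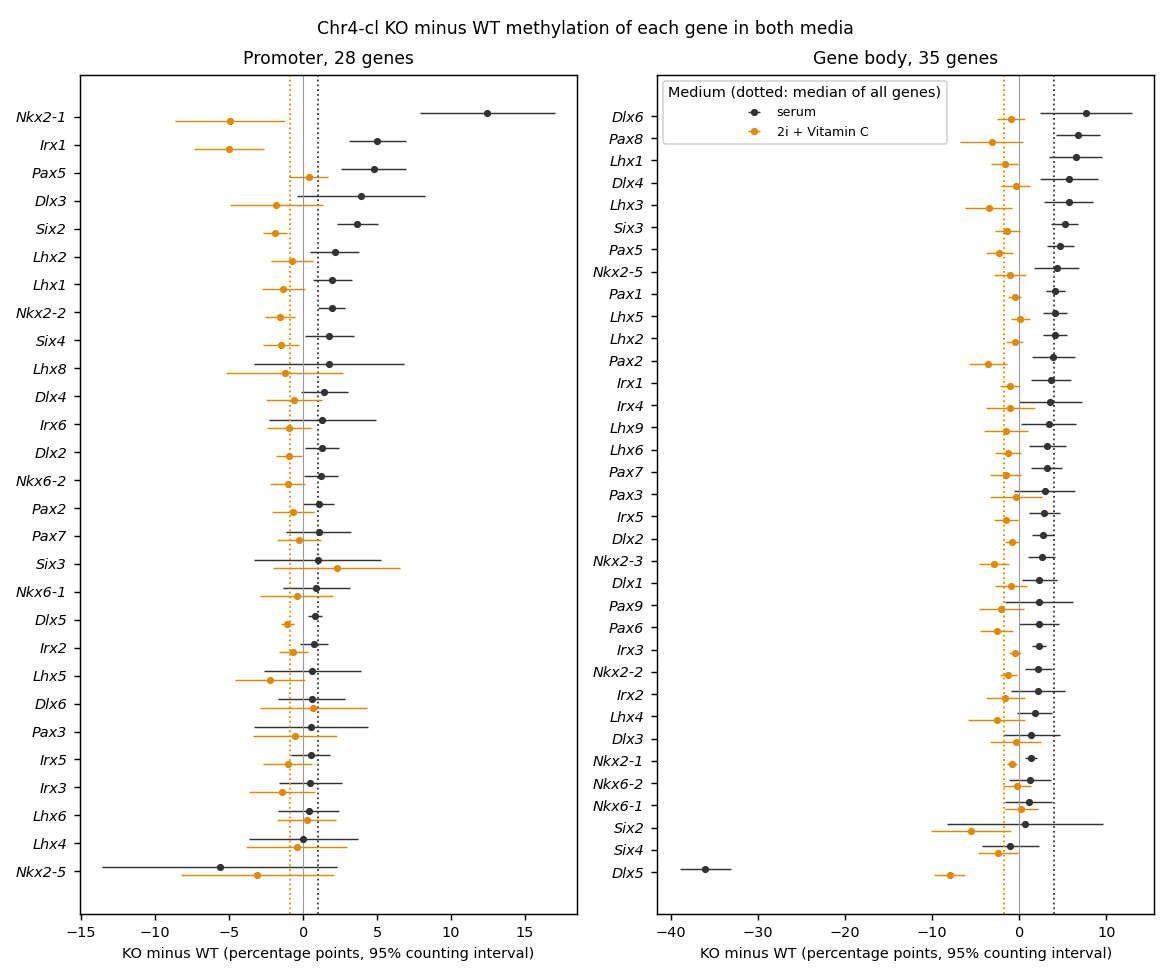
KO minus WT differences in percentage points with 95% counting intervals, for each tested gene of the set, in serum and in 2i + Vitamin C and by region, dotted lines marking the median of all genes. Nearly all promoters lie within a few points of 0, whereas Nkx2-1 rises in serum by 12.4 points and the Dlx5 gene body falls by 36.1.

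A gene was called changed at an adjusted p under 0.05 in Fisher's exact test on pooled reads, with Benjamini-Hochberg adjustment over all tested genes, and a difference of at least 10 points. By this rule 1 of the 28 promoters was higher in KO cells in serum, Nkx2-1, and 0 were lower. The background was 2.6% of all genes higher and 0.175% lower, so 1 of 28 is near the background. The 0 counts lower promoters only, whereas 19 promoters of the set had an unadjusted p under 0.05 in either direction by Fisher's exact test. The Cochran-Mantel-Haenszel test gave 20 and called only Nkx2-1. At an adjusted p under 0.05 by Fisher's exact test, without the size rule, the shares were 64.3% of the set and 48.2% of all genes. In 2i + Vitamin C 0 promoters were called, against 0.116% of all genes higher and 0.515% lower. The highest tested promoter of the set was at 9.08% in WT 2i + Vitamin C, so none could be called lower. An unadjusted p under 0.05 was found for 15 by either test. By Fisher's exact test 42.9% of the tested promoters of the set had an adjusted p under 0.05, against 36.4% of all genes.

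At the promoter of Nkx2-1 (gene at chr12:57632922-57637895, minus strand), the counting standard errors were 1.57, 1.71, 0.910 and 1.66 points in WT serum, KO serum, WT 2i + Vitamin C and KO 2i + Vitamin C. KO minus WT was 12.4 points in serum (7.89 to 17.0), with an adjusted p of 1.55e-09 by Fisher's exact test, and it ranked 239 of 12033 promoters. In 2i + Vitamin C it was -4.93 points (-8.64 to -1.22), with an adjusted p of 0.0657. The 2 differences were themselves 17.4 points apart, KO being relatively lower in 2i + Vitamin C, with an adjusted p of 5.72e-11 by a Wald test. In the 5′ UTR window printed above, the third CpG read 23.0% and 47.8% in serum, then 14.6% and 0% in 2i + Vitamin C, and the first read 31.1%, 39.6%, 11.5% and 3.70%. The third lies 3 bases from an MspI site. In the upstream window the first CpG was at 63.9% and 65.3% in serum and the second at 16.4% and 42.9%. KO serum was higher than WT serum at 10 of 10 sites, by unequal amounts along the promoter. With a coverage minimum of 5 reads it was 9.58 points and no longer passed. In contrast, the body of Nkx2-1 was at 2.19% and 3.55% in serum, then 2.00% and 1.20% in 2i + Vitamin C over 28 sites.

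**Figure D3:**
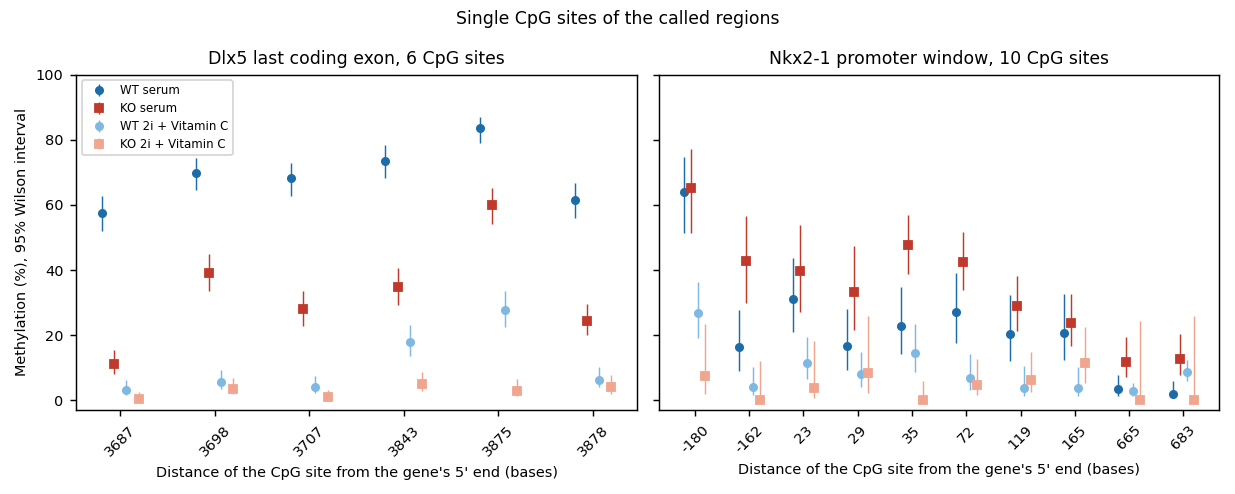
Methylation (percent, vertical axis) of the 6 Dlx5 body sites (left) and the 10 Nkx2-1 promoter sites (right), evenly spaced and labelled with their distance from the annotated 5′ end in bases, 1 colour per library, bars showing 95% Wilson intervals. The Dlx5 sites are highest in WT serum, from 57.4% to 83.5%, and the Nkx2-1 sites are higher in KO than in WT serum at 10 of 10.

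The other Nkx, Pax and Dlx promoters with elevated levels did not pass in KO minus WT. Nkx2-5 differed by -5.64 points in serum (-13.6 to 2.29) with an adjusted p of 0.178 by Fisher's exact test. Pax5 differed by 4.77 points (2.57 to 6.96) with an adjusted p of 8.68e-05, but a difference under the size asked. Dlx3, a factor of placenta and skin, had 10.9%, 14.8%, 3.96% and 2.15% over 19 sites and differed by 3.93 points in serum (-0.385 to 8.25). The intervals of Nkx2-5 and Dlx3 include 0.

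The promoter of Irx1, a patterning factor of lung and nervous system, was the only other promoter of the set called for a change of KO minus WT between media. It had 1.60% in WT serum, 6.62% in KO serum, 6.30% in WT 2i + Vitamin C and 1.27% in KO 2i + Vitamin C, over 28 sites (gene at chr13:72095680-72101171, minus strand). The differences were 5.02 points in serum (3.10 to 6.94) and -5.04 in 2i + Vitamin C (-7.40 to -2.67). They were 10.1 points apart, with an adjusted p of 4.66e-44 by the Wald test. Irx1 and Nkx2-1 were 2 of 28 promoters called by this test, against 3.71% of all genes.

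The Irx1 values came from a few sites. In the printed window the sixth CpG read 1.27% and 59.8% in serum, then 46.3% and 0% in 2i + Vitamin C, the second 0.641%, 28.4%, 22.4% and 0%, and the fourth 1.91%, 22.5%, 16.0% and 0%. The other 4 CpG of the window stayed at or under 9.52% in every library. KO 2i + Vitamin C had 12 reads at the sixth CpG and 13 at the second. The sixth CpG lies 3 bases from an MspI site.

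Across the genome the same pairing was frequent at that distance. Of 218036 sites at 5% or lower in WT serum and KO 2i + Vitamin C, 462 were at 20% or higher in the other libraries, and 309 of these, or 66.9%, lay 3 or 15 bases from an MspI site, against 4.39% of the 218036. The opposite pairing was seen at 13 sites. The set held 5 of the 462 sites, in Irx1, Six2, Pax6 and Six3, and 0 of the 13. Without sites at 3 or 15 bases, of which the set had 70 among 1744, the Irx1 difference between media was -6.04 points and no longer passed, and Nkx2-1 still passed.

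**Figure D4:**
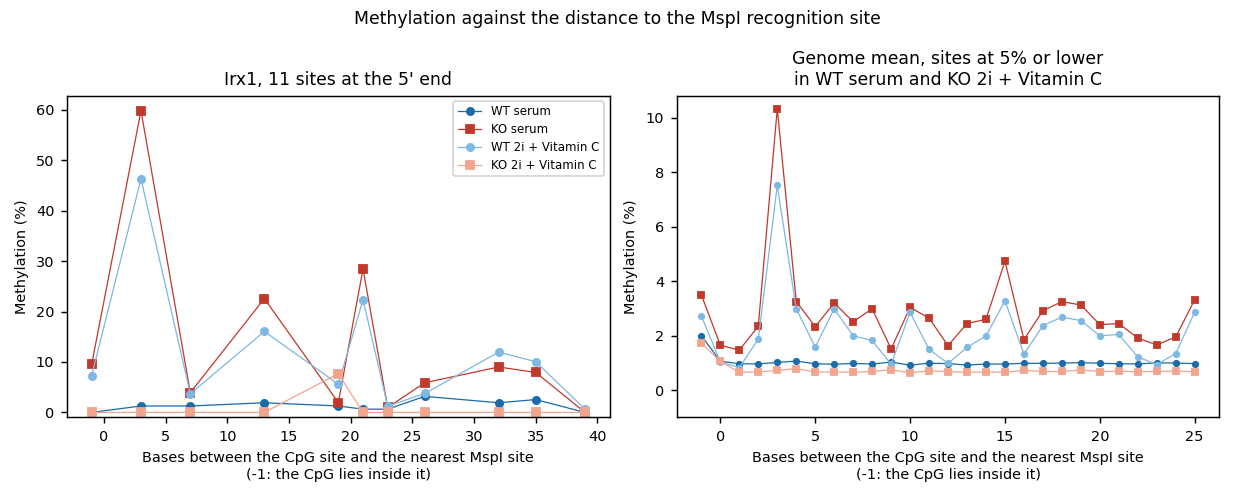
Left, methylation (percent) of 11 covered CpG sites at the 5′ end of Irx1 by number of bases to the nearest MspI site, 1 colour per library. Right, mean methylation (percent) against the number of bases between a CpG and the nearest MspI site, over sites chosen to be at 5% or lower in WT serum and KO 2i + Vitamin C, so that those libraries are low by selection; at 3 bases KO serum and WT 2i + Vitamin C reach 10.3% and 7.52%.

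Gene bodies of the set were far less methylated than gene bodies in general. The median over the 35 tested genes was 7.60% in WT serum, 11.1% in KO serum, 3.37% in WT 2i + Vitamin C and 2.15% in KO 2i + Vitamin C, against 51.5%, 61.0%, 18.0% and 15.6% over 7213 genes. Low bodies were not particular to the set. In WT serum the body medians of other homeobox genes and of Hox genes were 11.02% and 8.12%, without a test. Bodies of the set under 5% numbered 9 and 4 of 35 in serum, then 25 and 27 in 2i + Vitamin C. The family medians in WT serum ran from 3.02% for Nkx, 5.73% for Six-type genes and 6.99% for Irx to 9.94% for Lhx, 14.7% for Dlx and 23.1% for Pax. Pax bodies thus had the highest family median and Nkx bodies the lowest, without a test. By family mean Dlx bodies, at 23.8%, were above Pax bodies, at 20.1%.

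The low level went with CpG density. Of the 1131 body sites, 907 had 10 or more CpG within 100 bases, or 80.2%, against 50.5% of body sites of all genes. These dense sites averaged 6.41% in WT serum, 8.97% in KO serum, 2.86% in WT 2i + Vitamin C and 1.84% in KO 2i + Vitamin C, while dense body sites of all genes averaged 15.7%, 19.1%, 7.13% and 5.96%. At 172 sites with 5 to 9 CpG the means were 33.3%, 38.4%, 13.8% and 11.2%, against 64.5%, 71.1%, 28.2% and 24.9%. At 52 sites with fewer than 5 they were 63.0%, 71.3%, 24.7% and 20.3%, against 74.8%, 79.8%, 35.3% and 31.3%. The set was lower in each density class. Density within a class was not matched between the set and all genes, and its part in the lower level was not tested. Across the 35 genes, Spearman's rho between body methylation in WT serum and the share of dense sites was -0.568, and against gene length it was 0.3. These points share the 4 libraries and differ in number of sites.

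By annotation, the mean in WT serum was 4.48% at 61 sites in 5′ UTRs, 8.78% at 466 sites in coding exons, 18.4% at 491 intron sites and 18.5% at 49 sites in 3′ UTRs. By distance, sites in the first 1 kb of the genes averaged 3.10% in WT serum, against 3.67% in all genes. Upstream, the means were 5.05% at 1 to 2 kb, 29.1% at 2 to 3 kb (64 sites), 14.9% at 3 to 4 kb and 17.5% at 4 to 5 kb, against 15.7%, 22.5%, 21.0% and 23.4% in all genes. The set was below all genes in these upstream bins except at 2 to 3 kb.

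**Figure D5:**
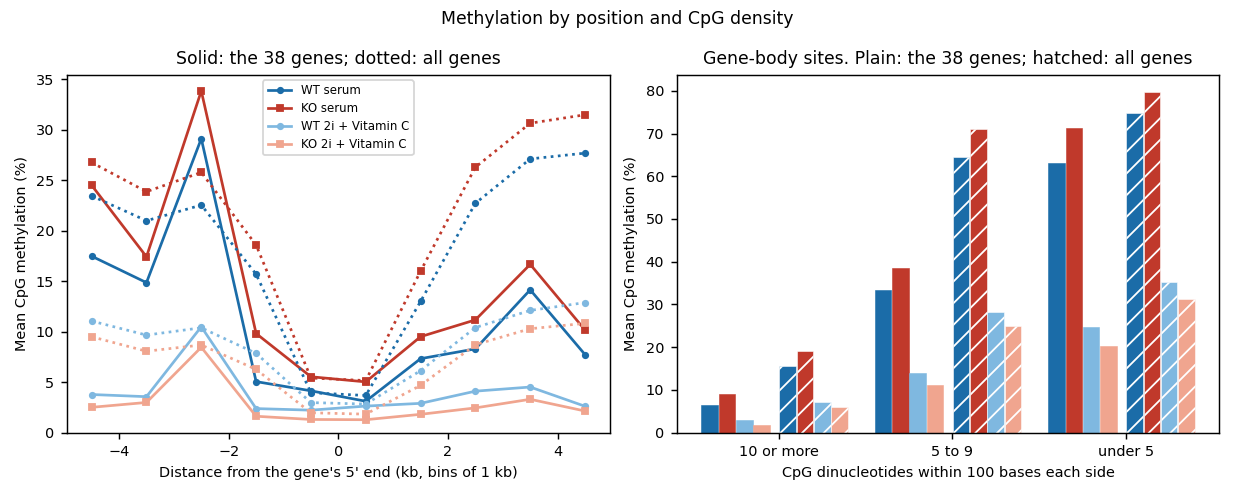
Mean methylation (percent, vertical axis) of covered CpG sites against distance from the annotated 5′ end in kb and by number of CpG within 100 bases, for the set (solid lines, plain bars) and all genes (dotted lines, hatched bars), 1 colour per library. At gene body sites (bars) the set lies lower than all genes in each density class, for example 6.41% against 15.7% at dense sites in WT serum.

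The highest body was that of Dlx5, a regulator of jaw, limb and forebrain interneurons that lies beside Dlx6. Pax2, a factor of kidney and optic stalk, had 35.6% and 39.5% in serum, then 15.8% and 12.2% in 2i + Vitamin C over 49 sites. Dlx6 had 34.6%, 42.2%, 3.49% and 2.53% over 7 sites, in a gene that the antisense transcript Dlx6os1 overlaps. Other Pax bodies were also high. Pax8 had 33.6%, 40.3%, 11.4% and 8.31%, Pax5 had 28.1%, 32.8%, 13.7% and 11.5%, and Pax7, a factor of muscle stem cells, had 26.7%, 29.9%, 11.1% and 9.58%. Sites over 80% in WT serum numbered 16 of 73 in Pax5, 11 of 77 in Pax7 and 9 of 49 in Pax2.

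The lowest bodies in WT serum were those of Nkx6-1, Nkx2-3 and Nkx2-1. Nkx6-1 had 1.68% and 2.76% in serum, then 0.892% and 1.14% in 2i + Vitamin C over 11 sites. Nkx2-3, a factor of gut and spleen, had 1.86%, 4.44%, 3.84% and 0.926% over 26 sites. The 3 sites of Irx6 lay outside the tests at 62.8%, 59.0%, 13.2% and 18.2%.

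The remaining Pax genes had low promoters. Pax2, Pax3, a neural crest factor, and Pax7 ran from 1.29% to 1.88% in WT serum and from 2.04% to 2.92% in KO serum. After 2i + Vitamin C they stayed at or under 1.76%. Among bodies, Pax1 had 6.94% and 11.1% in serum, then 2.05% and 1.55% in 2i + Vitamin C over 28 sites, and its serum difference of 4.16 points (3.10 to 5.22) had an adjusted p of 7.39e-28 by Fisher's exact test, under the size asked. Pax6 had 19.5%, 21.8%, 8.18% and 5.59% over 41 sites. Pax3 and Pax9 were at 4.004% and 6.64% in WT serum. By site means all 8 Pax bodies were higher in KO serum, by 2.27 to 6.72 points, and lower in KO 2i + Vitamin C. On the pooled reads that Fisher's exact test compares, Pax7 was instead lower in KO serum, at 25.9% against 27.9% (adjusted p 0.0273). Likewise Pax5 and Pax8 were higher in KO 2i + Vitamin C on pooled reads, at 14.3% against 10.8% (adjusted p 3.24e-07 by Fisher's exact test) and 12.6% against 5.56% (adjusted p 6.86e-09).

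Lhx promoters, 6 of 8 tested, ran from 2.55% for Lhx1, a head and kidney factor, to 5.99% for Lhx8, a factor of cholinergic neurons and oocytes, in WT serum. In KO 2i + Vitamin C none passed 1.99%. Bodies ran from 4.53% in Lhx5 to 23.8% in Lhx3, and 7 of 7 were higher in KO serum by site means, by 1.80 to 6.48 points. Lhx1 had the largest of these, with 20.6% and 27.0% in serum, then 4.13% and 2.45% in 2i + Vitamin C over 30 sites, a difference of 6.48 points (3.45 to 9.51) with an adjusted p of 3.76e-14 by Fisher's exact test. The body of Lhx3 had 23.8%, 29.5%, 10.8% and 7.36%, but on pooled reads it was lower in KO serum, at 34.2% against 35.6%, with an adjusted p of 0.473 by Fisher's exact test. Thus no Lhx body reached 10 points.

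Of the Six-type genes, Six2 had promoter levels of 1.91%, 5.56%, 3.17% and 1.28% over 37 sites, and differed by 3.65 points in serum (2.26 to 5.04) and by -1.89 in 2i + Vitamin C (-2.72 to -1.06). Its body, 5 sites, had 22.6%, 23.3%, 8.15% and 2.61%. Six3 had body levels of 5.73%, 10.97%, 3.51% and 2.15% over 72 sites, and differed by 5.23 points in serum (3.67 to 6.79). The body of Six4, with 2.88%, 1.88%, 3.03% and 0.609%, was the only one beside Dlx5 that was lower in KO serum by site means. Its interval of -4.29 to 2.28 points includes 0.

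The Dlx genes lie as pairs of neighbours. Dlx1 and Dlx2, which specify forebrain interneurons, had body levels of 5.03% and 6.46% in WT serum and 7.33% and 9.21% in KO serum, with 3.40% and 2.81% in WT 2i + Vitamin C. The Dlx2 promoter had 1.41%, 2.69%, 2.05% and 1.09% over 38 sites. In the next pair, the body of Dlx3 had 23.0%, 24.4%, 10.99% and 10.6%, whereas that of Dlx4 had 4.74%, 10.5%, 0.936% and 0.523% over 5 sites. None of these 4 genes was called in KO minus WT.

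Of the tested Irx promoters, none other than Irx1 passed both the size and the p threshold in any comparison. Irx2, the promoter with the most covered sites, 58, had 2.09% and 2.82% in serum, then 1.68% and 1.01% in 2i + Vitamin C. Irx6 was the highest of the tested ones in serum, with 6.87%, 8.17%, 1.83% and 0.857%, and differed between media by -5.04 points in WT (-7.86 to -2.22) and by -7.31 in KO cells (-10.01 to -4.61). Irx3 and Irx5, factors of limb and heart, were at 1.88% and 1.80% in WT serum. By site means the 5 tested bodies were all higher in KO serum, by 2.14 to 3.64 points, and differed by -1.59 to -0.474 points in 2i + Vitamin C. On pooled reads Irx2 was lower in KO serum, at 8.42% against 11.2% (adjusted p 0.00849 by Fisher's exact test).

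Among Nkx genes, Nkx2-2, a ventral spinal cord and islet factor, had promoter levels of 1.43%, 3.37%, 2.23% and 0.682% and body levels of 7.01%, 9.17%, 3.03% and 1.79%. Nkx6-2, a factor of motor neurons and myelinating glia, had 1.57%, 2.79%, 1.94% and 0.884% over 48 promoter sites. The body of Nkx2-5 was at 8.59%, 12.9%, 2.34% and 1.30%, well under its promoter in WT serum. By site means all 6 Nkx bodies were higher in KO serum, by 1.07 to 4.29 points.

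Over the 1131 body sites, mean methylation was 13.1% in WT serum, 16.3% in KO serum, 5.54% in WT 2i + Vitamin C and 4.11% in KO 2i + Vitamin C, and over body sites of all genes 41.5%, 46.2%, 18.7% and 16.3%. KO minus WT was 3.21 points in serum (2.83 to 3.59) and -1.43 in 2i + Vitamin C (-1.75 to -1.11). In serum 33 of 35 bodies were higher in KO cells, or 94.3% against 89.5% of all genes, and in 2i + Vitamin C 33 of 35 were lower, all by site means. On pooled reads 29 of 35 were higher in serum and 26 of 35 lower in 2i + Vitamin C. The direction turned in serum for Pax7, Lhx3, Dlx3 and Irx2, and in 2i + Vitamin C for Pax5, Pax8, Lhx2, Lhx4, Lhx9, Dlx3 and Nkx6-2. The median differences were 2.91 points in serum and -1.27 in 2i + Vitamin C, against 3.96 and -1.78 over all genes. By site means the medians had the same sign as those of all gene bodies and were smaller.

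By the rule above, 0 of 35 bodies were higher in KO cells in serum and 1 was lower, Dlx5, against a background of 15% higher and 0.416% lower. The 0 counts higher bodies only, whereas 26 bodies had an unadjusted p under 0.05 in either direction by Fisher's exact test. The Cochran-Mantel-Haenszel test gave 31 and called 1. At an adjusted p under 0.05 by Fisher's exact test, without the size rule, the shares were 71.4% of the set and 59.2% of all genes. None (0) were called in 2i + Vitamin C, with a background of 0.36% higher and 4.17% lower. Bodies under 10% in WT 2i + Vitamin C could not be called lower there. The medians in that library were 3.37% in the set and 18.0% over all genes. An unadjusted p under 0.05 was found for 25 and 23 bodies by the 2 tests. By Fisher's exact test 68.6% of the tested bodies of the set had an adjusted p under 0.05, against 41.2% of all genes.

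Dlx5 went against the general direction. Its body (gene at chr6:6827805-6832085, minus strand) had 69.0% ± 1.04 (counting SE) in WT serum, 32.9% ± 1.08 in KO serum, then 10.8% ± 0.782 and 2.83% ± 0.496 in 2i + Vitamin C. KO minus WT was -36.1 points in serum (-39.0 to -33.1), with an adjusted p of 7.62e-104 by Fisher's exact test. This was the second largest fall of the 7213 bodies tested and the largest among 6588 protein-coding genes. The difference in 2i + Vitamin C was -7.98 points (-9.80 to -6.17), with an adjusted p of 7.11e-16, under the size asked. The difference between media was 28.1 points, with an adjusted p of 7.55e-52 by the Wald test, and Dlx5 was 1 of 35 bodies called there, against 23.8% of all genes. With WT cells at 10.8% in 2i + Vitamin C, KO cells could not be lower by more than that in this medium. The difference in points therefore cannot tell whether the genotypes differed less in proportion.

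All 6 sites lie in the printed coding exon, 3687 to 3878 bases from the 5′ end, with 276 to 327 reads in serum. In WT serum they ranged from 57.4% to 83.5% and in KO serum from 11.3% to 59.9%, and each of the 6 was lower in KO cells. The first CpG of the window fell from 57.4% to 11.3%, and the fifth from 83.5% to 59.9%. Reads that span neighbouring sites were counted at each of them, so the p-value is too small even as a comparison of 2 libraries.

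Elsewhere around Dlx5 methylation was low in both genotypes. The 10 promoter sites averaged 1.74% and 2.51% in serum, then 1.85% and 0.787% in 2i + Vitamin C. The 5 covered sites 7300 to 7455 bases from the 5′ end, beyond the 3′ end of the gene, read 1.78% to 3.91% in WT and 2.10% to 14% in KO cells in serum. The neighbouring Dlx6 body differed by 7.68 points in serum (2.43 to 12.9), with an adjusted p of 0.0122, in the other direction and under the size asked. None of the Dlx5 body sites had the pairing of libraries seen at Irx1. The values rest on 1 clone or culture per genotype.

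Single CpG sites were called at an adjusted p under 0.05 and at least 20 points, adjusted over all 400195 sites. In promoters 7 of 613 sites were higher in KO cells in serum and 1 was lower. In bodies 12 of 1131 were higher and 6 lower, all 6 in Dlx5. Among all sites 1.79% were higher and 0.115% lower. The sites higher in KO serum lay in Irx1, Six2, Nkx2-1 and Lhx2 promoters and in the bodies of Pax2, Pax5, Pax6, Pax7, Pax8, Lhx2 and Six3. In 2i + Vitamin C 0 sites were higher by Fisher's exact test, and 1 promoter site and 3 body sites were lower, against 0.0917% and 0.405% of all sites. Without sites 3 or 15 bases from an MspI site, 5 promoter and 9 body sites stayed higher in serum.

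The largest site rise was in Six3, a forebrain and eye factor. Its intron CpG, the third of the printed window, read 3.70% and 69.8% in serum, then 40% and 0% in 2i + Vitamin C, with an adjusted p of 9.77e-07 in serum. In Pax6, the master regulator of the eye, the second CpG of the window read 2.48%, 48.7%, 39.0% and 0.357%, with an adjusted p of 5.39e-55. The first CpG of that window stayed at 3.20%, 2.80%, 1.77% and 1.39%. Both sites have the pairing described for Irx1 and lie 3 bases from an MspI site.

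Other sites had a simpler pattern. In the Pax2 intron window the third CpG read 57.1% and 88.2% in serum, then 14.7% and 8.33% in 2i + Vitamin C, with an adjusted p of 0.00289 in serum, and the first read 64.3%, 90.7%, 16.9% and 11.4%. Their neighbour between them was at 91.9% and 100% in serum. In Pax5 the largest of 3 called sites differed by 32.6 points in serum, with an adjusted p of 6.02e-06, and by -1.12 points in 2i + Vitamin C. The only promoter site lower in KO serum, in Lhx5, a forebrain factor, fell by 30.4 points to 0%, with an adjusted p of 0.0413. The 3 called Pax8 sites lie 39817 to 39850 bases from the 5′ end, close enough for 1 read to span them.

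In 2i + Vitamin C the gene bodies of the set had less methylation than in serum, and the promoters differed by less. Over promoter sites the mean difference was -0.773 points in WT (-1.14 to -0.407) and -3.85 in KO cells (-4.25 to -3.45). The WT value was 0.0974 with reads pooled over sites and -0.204 within 0.5 kb of the 5′ end. The median promoter difference in WT was -0.330 points in the set and 0.488 over all genes, of which 68.2% were higher. Over body sites it was -7.57 points in WT (-7.89 to -7.25) and -12.2 in KO cells (-12.6 to -11.8). The median body difference was -4.88 points in WT and -9.93 in KO cells, against -28.0 and -37.2 over all genes, which started from a higher level.

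Lower promoters were 2 of 28 in WT cells, Nkx2-1 and Nkx2-5, against 5.74% of all genes, and 4 of 28 in KO cells, those of Pax5, Dlx3, Nkx2-1 and Nkx2-5, against 8.43%. Nkx2-5 fell by 19.9 points in WT, with an adjusted p of 4.45e-12 by Fisher's exact test, and by 17.3 points in KO cells, with an adjusted p of 2.49e-09. Nkx2-1 fell by 13.4 points in WT and by 30.8 points in KO cells. The called promoters were methylated in serum, but promoters with serum levels under the size asked could not be called lower. Whether methylated promoters lost more for their level was therefore not tested.

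Lower bodies were 11 of 35 in WT cells against 72.5% of all genes, and 14 of 35 in KO cells against 78.8%. Bodies under 10% in serum could not be called lower. The serum medians were 7.60% (WT) and 11.1% (KO) in the set, against 51.5% and 61.0% over all genes. In WT they were Pax2, Pax5, Pax6, Pax7, Pax8, Lhx1, Lhx3, Six2, Dlx3, Dlx5 and Dlx6. Dlx5 fell by 58.1 points, with an adjusted p of 1.85e-275 by Fisher's exact test, and Dlx6 by 31.1 points, with an adjusted p of 4.14e-57. In KO cells Pax8 left the list and Lhx2, Lhx9, Irx1 and Nkx2-5 joined it. Pax8 fell by 32.0 points by site mean in KO cells but not on pooled reads, which gave 11.6% in serum and 12.6% in 2i + Vitamin C, with an adjusted p of 0.463. Its coverage was uneven between sites and libraries. No Irx body was called in WT, where the 5 tested bodies were between 3.50% and 9.21% in serum.

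Of single sites, 9 promoter and 149 body sites were lower in 2i + Vitamin C in WT cells. Their shares were 1.47% and 13.2%, against 26% of all sites. In KO cells 20 promoter and 200 body sites were lower, or 3.26% and 17.7%, against 29.4%. The shares of all sites are not split by region and include sites outside promoters and gene bodies. Sites over 80% made up 4.42% of body sites in WT serum and 0.0884% in WT 2i + Vitamin C.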

How the data were processed

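RRBS-seq libraries of 4 mouse ES cell groups were made with MspI and the NEXTflex Bisulfite-Seq kit and sequenced as paired-end reads. The authors used Trim Galore for trimming and Bismark for mapping to mm9, and joined both strands of each CpG with a Perl script. Versions are not given in the sources used here. For every CpG the deposited tables give counts (all reads, methylated reads) and a fraction. The fraction deposited by the authors equals the ratio of the deposited counts to within rounding, and only the counts were used. In 2 tables a second table is joined to the end, and positions found in both parts (332 and 830 rows) were not used.

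Sites with at least 10 reads in all 4 libraries were kept, and genes with 5 or more such sites per region were tested. Genes came from GENCODE on mm9. Fisher's exact test on pooled reads per gene and on each site, and a Wald test for the difference between media, were adjusted by the Benjamini-Hochberg method over all genes or sites, at 0.05 and 10 points for genes or 20 for sites. A gene's level is the mean over its sites. Intervals of site means come from binomial errors, and those of single sites are Wilson intervals. Only the rule with Fisher's exact test for genes in KO minus WT was tried on simulated data. The simulated reads were drawn independently at each site, without variation between clones or libraries. The Wald test, the test of single sites and the Cochran-Mantel-Haenszel test were not simulated. Alternatives changed coverage, site number, size, window, pooling and the test.

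The genes of the set were chosen by family name, and they, the lists and the tests were chosen with earlier results of these data known. The rule named genes called in KO minus WT or in its difference between media, the 3 highest and 3 lowest per region in WT serum, and up to 6 genes with called sites. All others were named after their values were seen. Lists of other homeobox, Hox, housekeeping, germline and Polycomb genes and of ES cell and fibroblast genes served for comparison. Statistics ran on scipy 1.17.1 and numpy 2.4.6 under Python 3.11.15, with tables in pandas 2.3.3, numba 0.67.0 for speed, samtools 1.23.1 and pysam 0.24.0 for sequence, and matplotlib 3.10.9 for plots.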

Additional observations from a re-analysis of the deposited data

Results flagged for a closer look

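The difference of KO minus WT was not the same in the 2 media for 3 genes, by a Wald test on the reads of 4 libraries. With 1 library per group, genotype cannot be told apart from clone and library in these differences. From serum to 2i + Vitamin C, KO minus WT changed by -17.4 points at the Nkx2-1 promoter and by -10.1 points at the Irx1 promoter. It changed by 28.1 points, becoming less negative, in the Dlx5 body, where WT cells had 69.0% in serum and 10.8% in 2i + Vitamin C. KO cells could thus not be lower than WT by more than 10.8 points in that medium. The mean over the set's sites also changed sign between media, by -3.07 points in promoters and by -4.64 points in bodies, and these differences were not tested. The sign change follows the pairing of WT serum with KO 2i + Vitamin C. Its part in these values was not tested beyond the results without sites 3 or 15 bases from an MspI site.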

How the results depend on the processing

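No paired analysis was possible because each group has 1 library and the labels give no replicate numbers. For the same reason no library could be left out, and depth limits KO 2i + Vitamin C most. Some alternatives, those leaving out sites 3 or 15 bases from an MspI site and those for the difference between media, were chosen after seeing the data. Of the mean differences under the alternatives, 1 reversed, 22 moved beyond the counting interval and 37 did not. The causes were not tested.

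For promoters in WT cells between media, -0.773 points became 0.0974 with reads pooled over sites, -1.99 with each gene counted once, -0.204 with a 0.5 kb window and -1.75 with 2 kb. In KO cells, -3.85 became -2.40, -4.83, -3.40 and -5.00 in the same order, and -3.44 without the sites near MspI sites. For bodies in serum, 3.21 became 1.90 pooled, 2.13 per gene and 2.82 with the first 1 kb. In 2i + Vitamin C, -1.43 became -1.10 pooled. Between media in WT cells, -7.57 became -8.57 and -6.91 at a coverage of 5 and 20 reads, -5.13 pooled, -8.76 per gene and -5.43 with the first 1 kb. In KO cells, -12.2 became -13.5, -11.6, -8.13, -12.6 and -9.66 in that order.

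At 5 points in place of 10, promoters called became 2 in serum, 1 in 2i + Vitamin C (Irx1), 5 and 7 between media in WT and KO cells, and 4 for the difference between media. Bodies called became 5, 2 (Six2 and Dlx5), 17, 25 and 9. At 20 points promoters became 0 in serum, 0 and 1 between media and 0 for the difference between media, and bodies 3 and 8 between media. At a coverage of 5 reads promoters became 0 in serum and 1 for the difference between media, and bodies 1 in 2i + Vitamin C (Dlx5), 23 between media in KO cells and 2 for the difference. At 20 reads promoters became 1 between media in WT cells and 1 for the difference, and bodies 2 in serum (Pax8 and Dlx5) and 3 for the difference. With 10 or more sites, promoters became 1 and 2 between media, and bodies 0 in serum and 0 for the difference, since Dlx5 has 6. Without sites near MspI sites, promoters became 1 for the difference, and single sites called in 2i + Vitamin C 2 in place of 4. The shares of all genes or sites called were not computed under these alternatives, so these counts cannot be read as many or few.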

Other observations

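Promoters of other developmental regulators were also low in methylation. Of other homeobox genes, 63 promoters were tested, with medians of 2.32% in WT serum, 3.93% in KO serum, 2.17% in WT 2i + Vitamin C and 1.14% in KO 2i + Vitamin C. The promoter called higher in KO serum was Nkx6-3, a gut factor, from 29.5% to 47.9%. Of Hox genes, which pattern the body axis, 24 promoters had medians of 2.83%, 5.21%, 2.00% and 1.08%, and Hoxc6 rose from 10.05% to 21.1%. In bodies of those lists Vax2 rose from 33.7% to 47.9%, Bsx from 16.2% to 26.6%, Hoxb5 from 15.7% to 28.7% and Hoxc4 from 19.4% to 31.6%.

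Germline gene promoters were the methylated contrast, with medians of 32.3%, 41.8%, 6.505% and 3.54% over 13 genes, and Mael, Asz1 and Tuba3b were called higher in KO serum. Promoters of 20 Polycomb subunits had medians of 1.10%, 2.48%, 2.03% and 1.33%, with 0 called by Fisher's exact test. Housekeeping promoters had medians of 1.15%, 2.17%, 1.94% and 0.915% over 16 genes. Pgk1 among them read 6.66% and 83.7% in serum, then 2.87% and 81.7% in 2i + Vitamin C in WT and KO cells, for which no cause was tested. Of fibroblast genes, Vim read 1.17%, 2.83%, 2.16% and 1.17%, and Col1a2 60.6%, 79.6%, 21.3% and 14.7%.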
